A study of Mus musculus with 2 samples.

Results

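The muscleblind-like genes Mbnl1, Mbnl2 and Mbnl3 encode the 3 members of one family of RNA-binding proteins, and the tags that crosslinked Mbnl2 protein left on their own transcripts are described here. All 3 genes were chosen by name, out of 22380 protein-coding genes in the mm9 GENCODE vM1 annotation. Tags were counted where they overlapped a gene on its strand, and were split by 3′UTR, coding exon, 5′UTR, intron and each alternative exon with its flanking intron. Mbnl1 lies on chromosome 3 from 60277032 to 60433670 on the plus strand, Mbnl2 on chromosome 14 from 120674891 to 120830919 on the plus strand, and Mbnl3 on chromosome X from 48470446 to 48559709 on the minus strand.

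Muscleblind proteins are zinc finger proteins that bind pyrimidine-GC-pyrimidine (YGCY) elements in RNA. They repress or activate alternative exons according to where they bind, and they also bind 3′UTRs. In myotonic dystrophy they are held on expanded CUG or CCUG repeats, so that their normal targets are spliced as in immature muscle. Mbnl1 is the main family member in adult muscle, Mbnl2 is best known from brain, and Mbnl3 is associated with immature and regenerating muscle. The family's own pre-mRNAs carry alternative exons that muscleblind proteins regulate, including a short exon that helps hold the protein in the nucleus, so each protein can act on its own transcript and on those of its paralogues.

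In HITS-CLIP, protein and RNA are crosslinked in the tissue by UV light, the RNA is trimmed with RNase A, the protein is immunopurified, and the short RNA fragments (tags) that remain on it are sequenced. Quadriceps muscle of WT mice and of Mbnl1-/- mice (Mbnl1 KO, the allele named Mbnl1 ΔE3/ΔE3 after exon 3), 15 to 16 weeks old, was powdered and crosslinked, and Mbnl2 was purified with the monoclonal antibody 3B4 with 38.6 and 0.0386 U/ml given as the high and low RNase A concentrations. The labels give the strain of both groups as C57BL/6, whereas the study's methods name a mixed background for compound knockouts. Each genotype has 1 table, in which 3 mice are merged with no label for mouse or RNase concentration on a tag, so no test between genotypes was made. The knockout is an inherited allele, so the Mbnl1 tags of Mbnl1 KO muscle come from transcripts of the targeted gene.

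The WT table held 343554 tags and that of Mbnl1 KO 476543, and levels are given as tags per 1000000 tags of the table. The Mbnl1 KO/WT ratio of these levels is followed by its 95% interval in brackets, computed by the exact Clopper-Pearson method from the Mbnl1 KO share of a region's tags. Such an interval holds counting error alone and takes tags as independent, so it is a statement on these libraries and not on the genotypes. Positions did repeat: at Mbnl1 the 100 WT tags lay at 85 positions and the 452 Mbnl1 KO tags at 290. With tags at the same position collapsed, the gene body ratio of Mbnl1 was 2.66 (2.08 to 3.43) in place of 3.26 (2.62 to 4.09). The intervals given may therefore be too narrow. At a one-sided 95% limit, a count of 0 allows up to 3 tags, which is 8.73 tags per 1000000 in WT and 6.30 in Mbnl1 KO. Tags whose reference sequence is at least 70% one base (single-base tags) made up 44.0% of WT and 17.0% of Mbnl1 KO tags on assembled chromosomes, and they enter every ratio through the total. The share of tags in 3′UTRs of protein-coding genes also differed, 4.16% in WT against 12.2% in Mbnl1 KO. All 8 of 8 listed muscle fibre markers had tags, 785 in WT and 2711 in Mbnl1 KO together. The listed markers of other cells, of which none was at 0 in both tables, had 186 and 774 tags (4 fibroblast genes), 34 and 92 (3 endothelial), 14 and 16 (3 leukocyte), 5 and 35 (3 adipocyte) and 1 and 7 (3 Schwann cell), and their part in the results was not tested. In bulk muscle, fewer cells of a type and less RNA per cell cannot be told apart.

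Each table is made of sorted blocks laid end to end, 3 in WT (47008 to 156970 tags) and 6 in Mbnl1 KO (11563 to 158417 tags). The labels do not say what a block is, so blocks are given as values without a test. Summed as 1 and 4, 2 and 5, and 3 and 6, the Mbnl1 KO blocks hold 250572, 88768 and 137203 tags. These sums equal the unique tag totals listed by the study for the replicates of this genotype. Blocks 1 to 3 and blocks 4 to 6 may thus be 2 parts of the same 3 mice, a match by tag number that no label states. Tags at the same position in different blocks were counted separately. At Mbnl1, blocks 4, 5 and 6 stood apart from blocks 1, 2 and 3. Results at Mbnl1 and Mbnl2 are therefore given by block, for blocks 1 to 3 and 4 to 6 separately, and for the 3 pairs, divisions made after the values were seen.

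The sites shown first were picked from those that carried the family's tags. Each is the 30 nt of mm9 centred on the highest tag depth of a cluster, a run of overlapping tags, and is written 5′ to 3′ on the transcript strand. All of those printed hold YGCY. Mbnl1 3′UTR clusters of 21 and 14 tags without YGCY at the summit are not printed, although the intronic clusters printed had fewer tags. Capitals mark YGCY, which is TGCT and its forms with C in place of either T or of both, searched on the transcript strand with overlapping matches counted.
Mbnl1 3′UTR near its end, chr3:60433516-60433545: acaacttactttcTGCTtgtagtggcttaa
Mbnl1 3′UTR, neighbouring cluster, chr3:60433462-60433491: acccaccttcatcTGCCgaaaggacagtga
Mbnl1 3′UTR, second largest cluster, chr3:60432870-60432899: cacgtCGCTtTGCTttttgtggacagcttg
Mbnl2 3′UTR, largest cluster, chr14:120829920-120829949: gtaatcttgcatagTGCTtgtgtcgtgttt
Mbnl1 intron upstream of the 54 nt match, chr3:60418505-60418534: cacTGCTGCCcccatgatgcacctcTGCTt
Mbnl1 the same intron, downstream part, chr3:60419427-60419456: agtgttcTGCTGCTTGCTTGCTcgTGCCcc
Mbnl2 intron upstream of the 95 nt exon, chr14:120803704-120803733: ctcccaTGCTccctTGCTttgcactgtgat

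The 4 3′UTR sites printed hold 1 or 2 copies of the motif, and the 3 intronic sites 2 to 5. Over all clusters of at least 3 tags, the summit site held YGCY in 35 of 56 at Mbnl1 and 10 of 18 at Mbnl2. In the 3′UTRs alone this was 13 of 25 and 2 of 6. Among the 875068 windows of 30 nt that tile the 3′UTRs of protein-coding genes, 28.0% held at least 1 YGCY and 5.10% at least 2. In the Mbnl1 3′UTR the share of windows with at least 1 was 27.7%, in Mbnl2 19.5% and in Mbnl3 25.0%. A match describes the letters and is not by itself a binding site.

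Over both genotypes together, Mbnl1 carried more Mbnl2 tags than all but 3 of the protein-coding genes, 100 in WT and 452 in Mbnl1 KO. These were 291 and 948 tags per 1000000, a ratio of 3.26 (2.62 to 4.09). It was 2.02 scaled to tags on protein-coding genes, 1.48 with tags of at least 2 reads that are not single-base tags, 7.58 with tags of at least 30 nt, and 1.14 (0.864 to 1.51) with Mbnl1 KO blocks 1 to 3 without single-base tags. Mbnl2 tags were thus found on the transcript of its paralogue in both genotypes. Mbnl2 itself had 33 and 126 tags, which were 96.1 and 264 tags per 1000000 and together ranked 155th, with a ratio of 2.75 (1.86 to 4.17). It was 1.71 scaled to tags on protein-coding genes, 1.78 with both filters, 1.65 with Mbnl1 KO blocks 1 to 3 without single-base tags, and 4.96 with tags of at least 30 nt. The study reported higher levels of both Mbnl2 protein and Mbnl2 mRNA in Mbnl1 KO skeletal muscle. Tags were not divided by the amount of transcript or of protein, and the part of either in these ratios was not tested. Mbnl3 had 3 and 5 tags.

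These ratios have to be read against the table. Of the 3888 gene bodies with at least 20 tags, 41.6% had a ratio of at least 2 and 3.76% one of at most 0.5, and the median ratio was 1.75. An interval wholly above 1 was found for 38.6% and wholly below 1 for 3.83%. Both Mbnl1 and Mbnl2 passed 2-fold with an interval above 1, as many genes did, although under some of the settings above they fell short of 2-fold, and under one of them the interval of Mbnl1 included 1. The ratio of Mbnl1 was above that of 84.1% of the measured genes and the ratio of Mbnl2 above 76.3%.

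**Figure D1:**
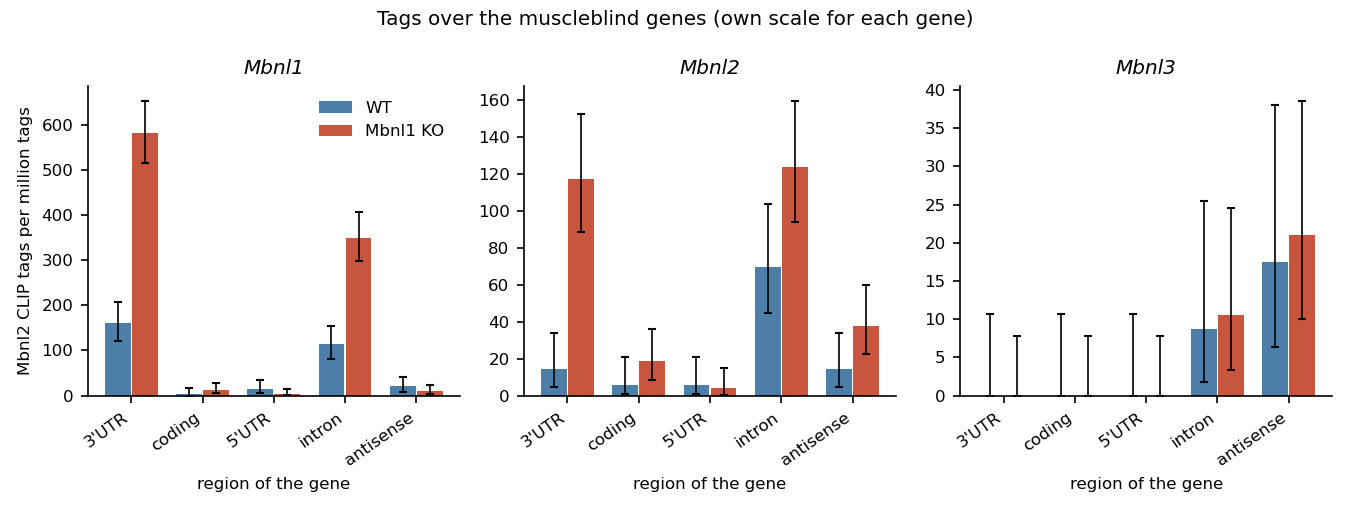
Tags per 1000000 tags of the table in each region of Mbnl1, Mbnl2 and Mbnl3, with the tags on the opposite strand of the gene as antisense, for WT (blue) and Mbnl1 KO (red). Bars are 1 merged table each and error bars are exact 95% Poisson intervals for counting error. They are two-sided, so at 0 tags they reach 10.7 in WT and 7.74 in Mbnl1 KO, somewhat above the one-sided limit of 3 tags. Bars are not divided by the length of the region. Mbnl1 was highest in 3′UTR and introns in both tables and Mbnl2 in Mbnl1 KO. In WT the Mbnl2 3′UTR had 5 tags over 2635 nt and the antisense strand 5 over 156029 nt. Mbnl3 tags lay below the antisense level.

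The Mbnl1 3′UTR held most of that gene's tags. It had 55 tags in WT and 277 in Mbnl1 KO over 3387 nt, or 160 and 581 tags per 1000000, a ratio of 3.63 (2.71 to 4.94). It was 2.25 scaled to tags on protein-coding genes, 1.71 with both tag filters, 8.22 with tags of at least 30 nt, and 1.10 (0.750 to 1.61) with Mbnl1 KO blocks 1 to 3 without single-base tags. At 98.0 tags per kb over both tables it was denser than 92.3% of the 862 3′UTRs with at least 20 tags and ranked 5th by tag number. Introns had 39 and 167 tags (3.09, 2.17 to 4.49), coding exons 1 and 6, and the 5′UTR 5 and 2. The antisense strand of the whole gene had 7 WT and 5 Mbnl1 KO tags, so the sense tags were far above this background in both tables.

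The 3′UTR gain at Mbnl1 was not set apart from that of other 3′UTRs. Of the 862 3′UTRs, 86.8% had a ratio of at least 2 and 0.116% one of at most 0.5, 77.8% had an interval wholly above 1, and the median ratio was 3.29. Mbnl1 ranked above 59.6% of them. Scaled to the tags in 3′UTRs of protein-coding genes, an alternative chosen after the data were seen, Mbnl1 had 38.5 WT and 47.6 Mbnl1 KO tags per 10000, a ratio of 1.24 (0.922 to 1.68) that includes 1.

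The blocks of the Mbnl1 KO table differed at Mbnl1, and the pairs of blocks much less. Each pair joins a block of 1 to 3 with a block of 4 to 6, so its level must lie between theirs. The gene body had 191, 215 and 389 tags per 1000000 in WT blocks 1 to 3. In Mbnl1 KO blocks 1 to 6 it had 600, 519, 241, 1367, 1334 and 1429. Block 3 of Mbnl1 KO therefore lay within the WT values, blocks 1 and 2 were above them, and blocks 4 to 6 were far above. Without single-base tags the WT blocks ranged from 346 to 602 and block 3 of Mbnl1 KO, at 285, lay below them. With blocks 1 to 3 alone the ratio was 1.72 (1.30 to 2.26), and with blocks 4 to 6 alone 4.73 (3.77 to 5.97). When single-base tags were also left out, the first became 1.14 (0.864 to 1.51) and the second 3.36 (2.68 to 4.25). Of the 452 Mbnl1 KO tags at Mbnl1, 336 came from blocks 4 to 6. Summed in pairs, blocks 1 and 4 had 882, blocks 2 and 5 had 1228 and blocks 3 and 6 had 889 tags per 1000000, all above the highest WT block. Without single-base tags the pairs had 1043, 1462 and 1091, again above the WT blocks. This holds for that pairing, whereas single blocks, and blocks 1 to 3 summed without single-base tags, did not all lie above the WT blocks.

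The same division showed in the 3′UTR. Per 10000 3′UTR tags of the block, the Mbnl1 3′UTR had 32.5, 37.0 and 40.3 in the WT blocks. It had 34.0, 27.6 and 17.6 in Mbnl1 KO blocks 1 to 3, and 56.6, 54.5 and 58.0 in blocks 4 to 6. Block 1 of Mbnl1 KO lay within the WT values, blocks 2 and 3 below them on 3 and 6 tags, and blocks 4 to 6 above. The pairs had 44.6, 52.4 and 48.9, above each WT block. Blocks 1 to 3 and 4 to 6 differed in 3′UTR tags as a whole too, which were 5.47% to 9.83% of the tags in blocks 1 to 3 and 15.0% to 16.4% in blocks 4 to 6, and the part of that difference in the result was not tested.

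**Figure D2:**
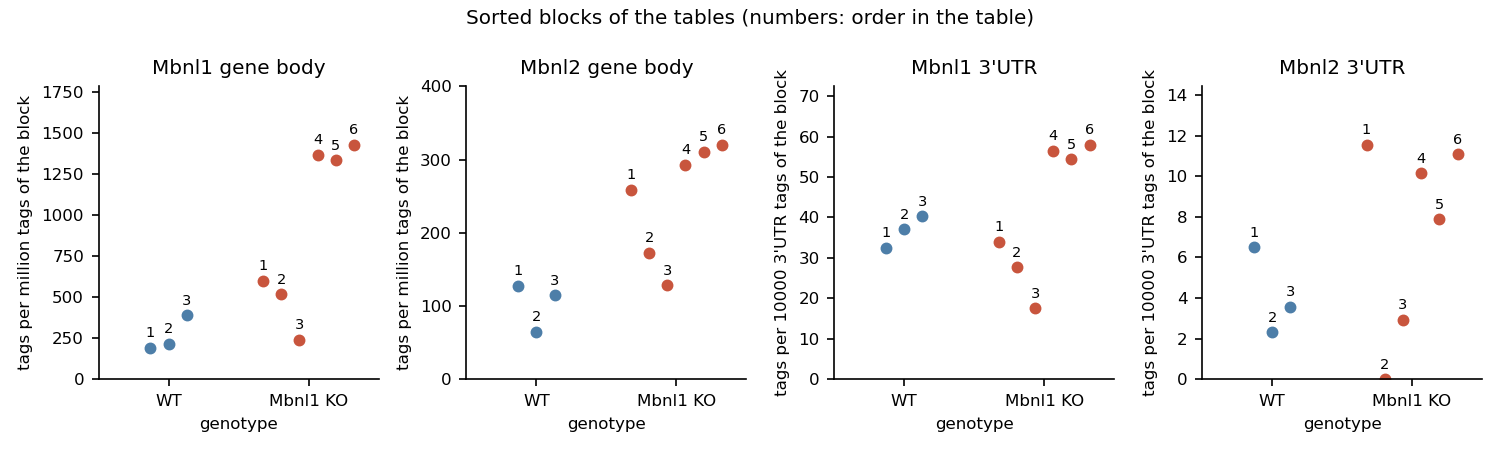
Each point is 1 sorted block of a table, numbered by its order there, for WT (blue) and Mbnl1 KO (red). The left pair of panels gives gene body tags per 1000000 tags of the block, and the right pair gives 3′UTR tags per 10000 tags of the block in 3′UTRs of protein-coding genes. Mbnl1 KO blocks 4 to 6 lie together at the top for Mbnl1, at 1334 to 1429 tags per 1000000, while block 3 lies at 241 among the WT blocks.

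Along the last exon of Mbnl1 (exon 10 of the longest annotated coding transcript, 60430302 to 60433670) the tags fell into 9 clusters of at least 10 tags. They held 46 of the WT and 201 of the Mbnl1 KO tags. Clusters were chosen by their tags over both tables, most of which came from Mbnl1 KO, so that their tag counts in the 2 genotypes are a description and are given without an interval. In 7 of the 9 the 30 nt at the summit contained YGCY. The 2 summits without the motif were at 60430752 to 60430781 and 60432627 to 60432656. Over the whole Mbnl1 3′UTR the motif was at 9 of 14 summits with a minimum of 5 tags and 13 of 25 with a minimum of 3.

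The largest cluster lay at the far end of the transcript, from 60433504 to 60433637, with its summit 140 nt before the annotated end of the gene. It had 11 tags in WT and 81 in Mbnl1 KO, from all 3 WT and all 6 Mbnl1 KO blocks. Its summit is the first of the sites printed above, with 1 TGCT. The adjoining cluster from 60433451 to 60433503, whose summit holds TGCC, had 0 tags in WT and 15 in Mbnl1 KO, and so reached the minimum through Mbnl1 KO alone. The cluster from 60432860 to 60432931, with CGCT and TGCT 1 base apart at its summit, had 6 and 27 tags.

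The tags were also split at the annotated transcript ends. The annotated transcripts of Mbnl1 end at 60432122, 60433302, 60433303 and 60433670. Up to the first of these ends, 27 tags in WT and 90 in Mbnl1 KO began, a ratio of 2.40 (1.55 to 3.84). Between it and 60433302 there were 16 and 87 (3.92, 2.28 to 7.16), and in the last 367 nt, which only 2 of the 5 transcripts contain, 12 and 97 (5.83, 3.19 to 11.7). The largest cluster and its neighbour are both in this last stretch. The intervals of all 3 stretches overlap, and the differences between them were not tested. Within the first 10000 nt downstream of the gene, 0 WT and 2 Mbnl1 KO tags were found, so few tags ran past the annotated end.

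**Figure D3:**
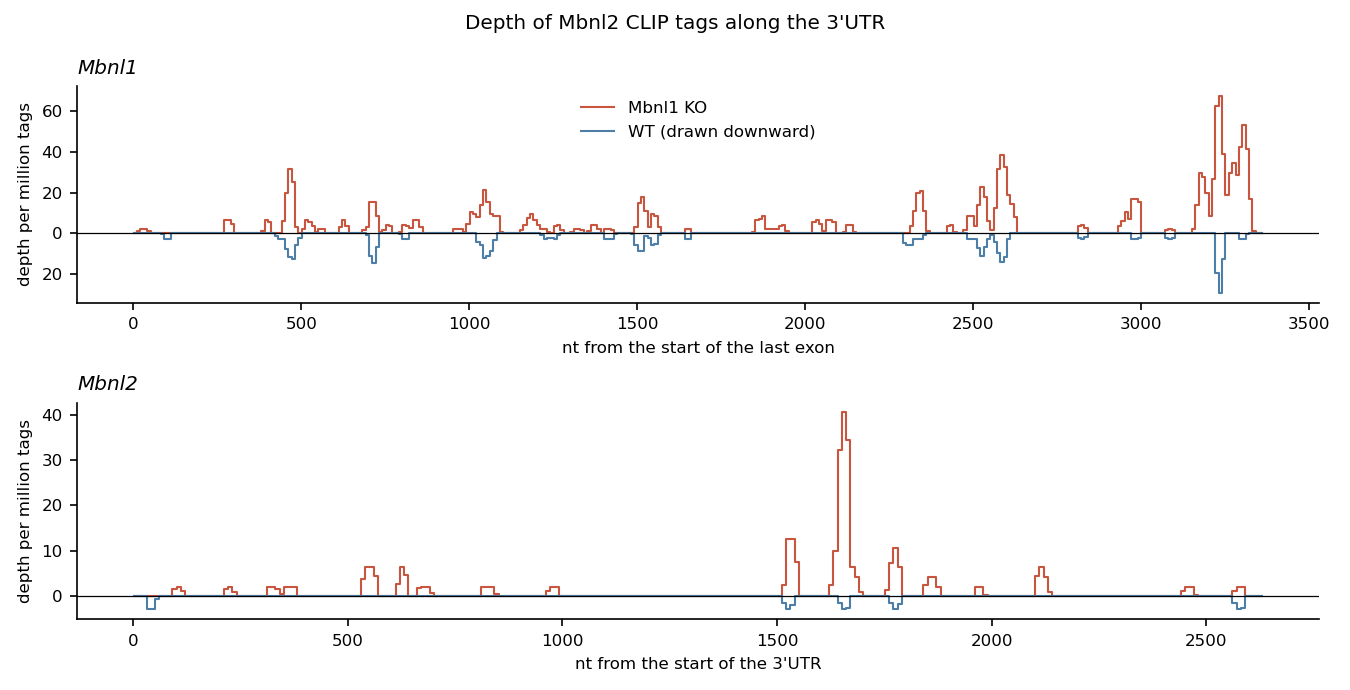
Mean depth per 1000000 tags in bins of 10 nt along the last exon of Mbnl1 (top) and the 3′UTR of Mbnl2 (bottom), with Mbnl1 KO (red) upward and WT (blue) downward from 0. Mbnl1 has 9 clusters of at least 10 tags and its highest depth near the end, and Mbnl2 has 1, at 24 Mbnl1 KO tags and 1 WT tag.

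In Mbnl2 the 3′UTR and the introns moved by different amounts. The 3′UTR, 2635 nt over all annotated transcripts, had 5 tags in WT and 56 in Mbnl1 KO, or 14.6 and 118 tags per 1000000, a ratio of 8.07 (3.26 to 25.8). It was 5.01 scaled to tags on protein-coding genes, 3.73 with tags of at least 2 reads, 3.13 (1.13 to 12.1) when single-base tags were left out too, and 15.5 as the expected ratio with the reads of Mbnl1 KO thinned to the number in WT. The introns had 24 and 59 tags, a ratio of 1.77 (1.09 to 2.98). Coding exons had 2 and 9, and the 5′UTR 2 and 2. The antisense strand of the gene had 5 and 18 tags (2.60, 0.929 to 8.94), fewer than the introns in both tables. The density of the 3′UTR over both tables was 23.1 tags per kb, against 98.0 in Mbnl1 and a median of 18.4 over the 862 3′UTRs. Its ratio was above that of 92.7% of them, on 5 WT tags.

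A measure that needs no scaling is the share of a gene's tags that lie in its 3′UTR. At Mbnl2 it was 15.2% in WT (5.11 to 31.9) and 44.4% in Mbnl1 KO (35.6 to 53.6, both exact Clopper-Pearson), and the odds ratio was 4.48 (exact conditional interval 1.56 to 15.7). At Mbnl1 the share was 55.0% (44.7 to 65.0) and 61.3% (56.6 to 65.8), with an odds ratio of 1.30 (0.815 to 2.05). Among the 390 genes with at least 20 tags inside and 20 outside the 3′UTR, the median odds ratio was 1.60 and 75.1% were above 1. The odds ratio of Mbnl2 was above 88.7% of these genes and that of Mbnl1 above 36.4%.

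Relative to 3′UTR tags as a whole, the Mbnl2 3′UTR had 3.50 WT and 9.61 Mbnl1 KO tags per 10000, a ratio of 2.75 (1.11 to 8.79). By block the values were 6.49, 2.31 and 3.56 in WT. In Mbnl1 KO they were 11.6, 0 and 2.93 in blocks 1 to 3 and 10.2, 7.90 and 11.1 in blocks 4 to 6. Blocks 1, 4, 5 and 6 were above every WT block, whereas blocks 2 and 3, with 0 and 1 tag at this 3′UTR, were not. The pairs had 10.9, 7.27 and 9.25, all above the WT blocks.

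The Mbnl2 gene body was less divided by block than Mbnl1. It had 128, 64.5 and 115 tags per 1000000 in the WT blocks. In Mbnl1 KO blocks 1 to 6 it had 259, 173, 128, 293, 311 and 320. The lowest Mbnl1 KO block, at 128.4, and the highest WT block, at 127.6, were close, and they changed order once single-base tags were left out, at 152 and 181. With Mbnl1 KO blocks 1 to 3 alone the ratio was 2.29 (1.45 to 3.66), and with blocks 4 to 6 alone 3.20 (2.10 to 4.97). The pairs had 271, 293 and 233 tags per 1000000, all above the WT blocks, and 319, 349 and 286 without single-base tags.

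Many of the Mbnl2 3′UTR tags sat at one place, with 24 of the 56 Mbnl1 KO tags and 1 of the 5 WT tags between 120829911 and 120829976. This was the only cluster of at least 10 tags in the Mbnl2 3′UTR, with 4 Mbnl1 KO blocks represented, and it too reached that minimum through its Mbnl1 KO tags. Its summit, shown above with 1 TGCT, lies 1650 nt into the 3′UTR and 985 nt before the end. It is past the end of the shorter annotated transcript whose last exon closes at 120828847, and so belongs to a longer annotated 3′UTR. The smaller clusters from 120829800 to 120829833 (1 WT and 6 Mbnl1 KO tags) and from 120830039 to 120830072 (1 and 5) flank it.

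Tags at the alternative exons were few in number, although most such exons have none. An alternative exon is an annotated internal exon that an intron of another transcript of the gene spans whole, and its window adds up to 500 nt of intron on each side. The family has 7 such exons, 2 in Mbnl1, 2 in Mbnl2 and 3 in Mbnl3. Their windows held 15 WT and 22 Mbnl1 KO tags together, a ratio of 1.06 (0.524 to 2.19). Of the 21740 alternative exon windows of protein-coding genes, 17.8% had a tag, 1.11% reached 7 tags and 0.607% reached 10. Those that reached 10 were 132, and of these 73.5% had a ratio of at least 2, 2.27% one of at most 0.5, and the median was 3.15. The interval was wholly above 1 for 40.9% and wholly below 1 for 1.52%. The 4 windows in Mbnl1 and Mbnl2 had 7, 8, 13 and 9 tags over both tables and the 3 in Mbnl3 had 0, so that 1 of 7 reached 10.

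That 54 nt exon of Mbnl2 (120794934 to 120794987) belongs to the short exons known for nuclear retention of muscleblind proteins. Its window had 4 tags in WT and 9 in Mbnl1 KO, giving a ratio of 1.62 (0.453 to 7.21). Only 1 tag, from Mbnl1 KO, touched the exon. The intron downstream had 3 and 7 tags, most of them in clusters 30 to 60 nt (0 and 3 tags, at 1 position in 3 blocks) and 465 to 490 nt (2 and 3 tags) beyond the exon. The whole of that intron, 685 nt, had 14.6 tags per kb over both tables, compared with 0.548 for all Mbnl2 introns. The genotypes could not be told apart here at this depth.

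The matching exon of Mbnl1 is not in the annotation used. Aligned without gaps in intron 5 of Mbnl1 (60417443 to 60419541), the Mbnl2 exon matched at 60418605 to 60418658, where 46 of 54 bases (85.2%) are the same and the stretch is bordered by AG and GT. The next best position had 24 identical bases. The first 30 bases of both are printed to show the likeness, with the 3 that differ in capitals.
Mbnl2 54 nt exon, chr14:120794934-120794963: actcagtcgActgCcaaaGcactgaagcga
Mbnl1 matched stretch, chr3:60418605-60418634: actcagtcgGctgTcaaaTcactgaagcga
In Mbnl3 no position of the corresponding intron matched more than 23 of the 54 bases.

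Tags at the Mbnl1 stretch lay on one side. The 500 nt upstream had 3 WT and 11 Mbnl1 KO tags (2.64, 0.698 to 14.8), all within 196 nt of its first base, whereas the stretch itself and the 500 nt downstream had none in either genotype. The 11 Mbnl1 KO tags came from 7 positions and 4 blocks. The cluster 64 to 106 nt upstream, with 2 WT and 5 Mbnl1 KO tags, has 3 YGCY in its summit site. The 500 nt upstream hold 13 YGCY (2.60 per 100 nt) and the 500 nt downstream hold 1 (0.200 per 100 nt). At the 54 nt exon of Mbnl2 the corresponding counts were 13 and 9, and most of its tags lay downstream.

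Intron 5 of Mbnl1 as a whole, 2099 nt, had 5 tags in WT and 18 in Mbnl1 KO, giving a ratio of 2.60 (0.929 to 8.94). Its 11.0 tags per kb over both tables compare with 1.36 for all introns of the gene. Besides the tags upstream of the matched stretch it held the cluster from 60419398 to 60419459, with 2 and 7 tags. The summit of that cluster, in the printed sites, has 5 YGCY within 30 nt. Of the tiled 3′UTR windows 0.105% held at least 4, but these are an unlike region, and introns were not tiled. More tags in number lay in the 65789 nt of intron 2, with 16 in WT and 97 in Mbnl1 KO (4.37, 2.56 to 7.95), at 1.72 tags per kb.

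**Figure D4:**
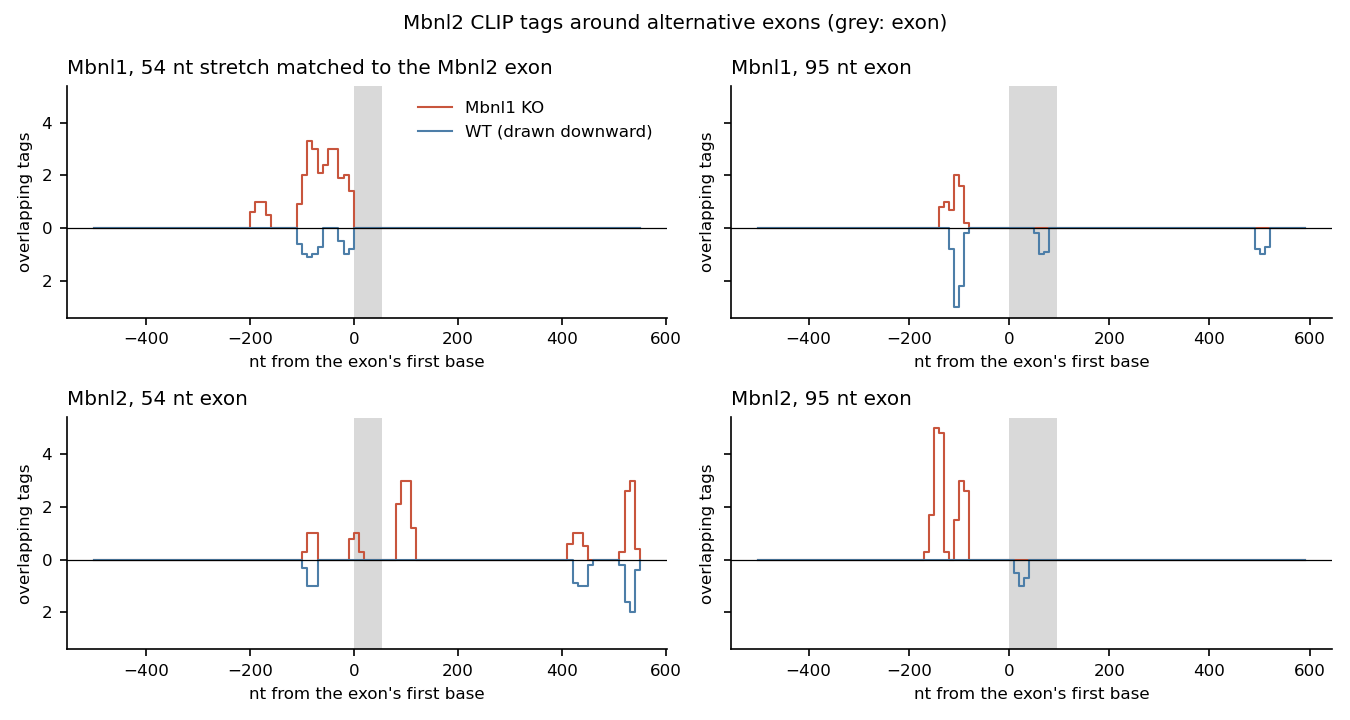
Number of overlapping tags, as the mean in bins of 10 nt, around the first base of the 54 nt and 95 nt exons of Mbnl1 (top) and Mbnl2 (bottom), Mbnl1 KO (red) upward and WT (blue) downward. Grey marks the exon. The 11 Mbnl1 KO tags at the 54 nt stretch of Mbnl1 and the 8 at the 95 nt exon of Mbnl2 all lie upstream.

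The 95 nt exon is shared by the family, with 85.3% identical bases between Mbnl1 and Mbnl2, 80.0% between Mbnl1 and Mbnl3, and 73.7% between Mbnl2 and Mbnl3. In the annotation it is alternative in Mbnl1 and Mbnl2 only. Near the Mbnl2 exon (120803860 to 120803954), the upstream 500 nt had 0 tags in WT and 8 in Mbnl1 KO, and the interval began at 1.23. That limit depends on the table totals and was not recomputed after removal of single-base tags. Their removal lowered the ratio of the family's windows together from 1.06 to 0.689, so the limit may not stay above 1. The 8 upstream tags came from 8 positions and 5 blocks, 82 to 163 nt before the exon. One cluster there, 130 to 163 nt upstream, had 5 Mbnl1 KO tags, and its summit site holds 2 TGCT. With the exon itself, which had 1 WT tag, the whole window counted 1 and 8 tags, and its ratio of 5.77 (0.773 to 256) includes 1.

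The window of the 95 nt exon of Mbnl1 (60426068 to 60426162) held 5 tags in WT and 3 in Mbnl1 KO, giving a ratio of 0.433 (0.0672 to 2.22). The difference from the Mbnl2 exon was not tested. Upstream there were 3 and 3 tags, 89 to 138 nt before the exon, at a similar distance as in Mbnl2. All 3 of the Mbnl1 KO tags were from 1 block. The 36 nt exon just before it in Mbnl1 is not alternative by the rule used, but a stretch of Mbnl2 intron (120802558 to 120802593) matches it at 31 of 36 bases (86.1%) between AG and GT. That window had 3 WT tags, all downstream, and 0 from Mbnl1 KO, with an interval from 0 to 1.74.

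The first alternative exon of Mbnl1, exon 2 of the longest annotated coding transcript (60332678 to 60333726, 1049 nt), contains the start codon at 60333553. Its window had 5 tags in WT and 2 in Mbnl1 KO, giving a ratio of 0.288 (0.0275 to 1.76). All 7 lay in its 5′UTR part and the nearest ended 567 nt before the start codon. The coding part of 174 nt had 0 tags in both tables. These tags therefore did not check the targeted deletion, whose coordinates were not at hand. Exon 3 of this annotation, which may not be the exon 3 after which the allele is named, had 0 tags in WT and 4 in Mbnl1 KO, and the interval began at 0.476.

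The tags on Mbnl3 did not exceed those on its opposite strand. Its 3 WT and 5 Mbnl1 KO tags, 8.73 and 10.5 tags per 1000000, gave a ratio of 1.20 (0.234 to 7.74). All 8 were intronic and rested on 1 read each, and 1 of the Mbnl1 KO tags was a single-base tag. The opposite strand had 6 and 10 tags. Its 3′UTR of 3738 nt, longer than that of Mbnl1, had 0 tags in both tables, as had its coding exons and its 3 alternative exons of 87, 36 and 247 nt. A count of 0 allows up to 3 tags in each table, and does not tell a transcript that is absent from one that was not bound.

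The motif was also counted within the tags, as their reference sequence gives them. In the Mbnl1 3′UTR, YGCY was about as frequent in both genotypes. It was present in 67.3% of the 55 WT and 65.3% of the 277 Mbnl1 KO tags there, and in 66.7% of 39 and 58.1% of 167 in the Mbnl1 introns. For Mbnl2 these were 60.0% of 5 and 44.6% of 56 in the 3′UTR, and 58.3% of 24 and 52.5% of 59 in the introns. In the 3′UTR tags of all other protein-coding genes, without single-base tags, the share was 58.9% in WT and 58.9% in Mbnl1 KO, and in their intronic tags 41.2% and 50.7%. The lower share in the Mbnl2 3′UTR of Mbnl1 KO comes from 25 of 56 tags, many of which overlap each other.

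Setting the family beside other genes tied to myotonic dystrophy, 8 were listed, of which 6 had at least 20 tags. All 6 had a ratio of at least 2, against 41.6% of genes, 5 had an interval above 1, against 38.6%, and their median was 2.31, against 1.75. The 2 sets are unlike, and the difference was not tested. From 15.7% to 75.0% of the tags of these 6 lay in the 3′UTR, against a median of 10.5% over the genes. Of the 3′UTRs with at least 20 tags, 86.8% had a ratio of at least 2. Dmpk and Hnrnph1 also reached 20 tags only with their Mbnl1 KO tags. Celf1, a splicing regulator that opposes muscleblind proteins, had 21 WT and 71 Mbnl1 KO tags (2.44, 1.48 to 4.18), and its paralogue Celf2 70 and 195 (2.01, 1.52 to 2.68). Dmpk, the host of the CUG expansion, had 5 and 15 tags (2.16, 0.747 to 7.61). Cnbp, the host of the CCUG expansion, had 2 and 8, below the 20 tags. Rbfox1, a splicing regulator that like the muscleblind genes belongs to a family with cross-regulation, had 54 and 176 tags (2.35, 1.72 to 3.25), and Rbfox2 35 and 110 (2.27, 1.54 to 3.42). Hnrnph1, a splicing regulator of the hnRNP family, had 4 and 27 (4.87, 1.70 to 19.1) and Stau1, an RNA transport protein, 5 and 14, also below the 20 tags. Mbnl1 had more tags than any of them. The share of tags in the 3′UTR over both tables was 60.1% at Mbnl1 and ranged from 5.26% (Stau1) to 75.0% (Dmpk) among the 8, with 55.4% at Celf1.

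The genes most like Mbnl1 were sought among 1323 protein-coding genes with at least 50 tags, by the distance in log2 ratio and in the share of tags in the 3′UTR over both tables. The nearest were the transcription factor gene Stat5b (13 WT and 59 Mbnl1 KO tags), the integrin activator gene Fermt2 (11 and 49) and Fam134b (11 and 51), with ratios of 3.27, 3.21 and 3.34. For Mbnl2 they were the cytolinker gene Plec (27 and 103), Cpeb3 (28 and 106), which encodes an RNA-binding protein, and the collagen gene Col1a1 (123 and 471), with ratios of 2.75, 2.73 and 2.76. All 6 had fewer tags than Mbnl1 except Col1a1.

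The ratios at Mbnl1 and Mbnl2 were above 1 in every setting that gave one, but their size varied. The gene body ratio of Mbnl1 ran from 1.14 to 7.58 and that of Mbnl2 from 1.65 to 4.96 over 14 settings besides the reported one, and the 3′UTR ratio of Mbnl1 ran from 1.10 to 8.22. The 3′UTR ratio of Mbnl2 stayed between 2.75 and 15.5, with an interval above 1 in each of the 13 settings that gave one.

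**Figure D5:**
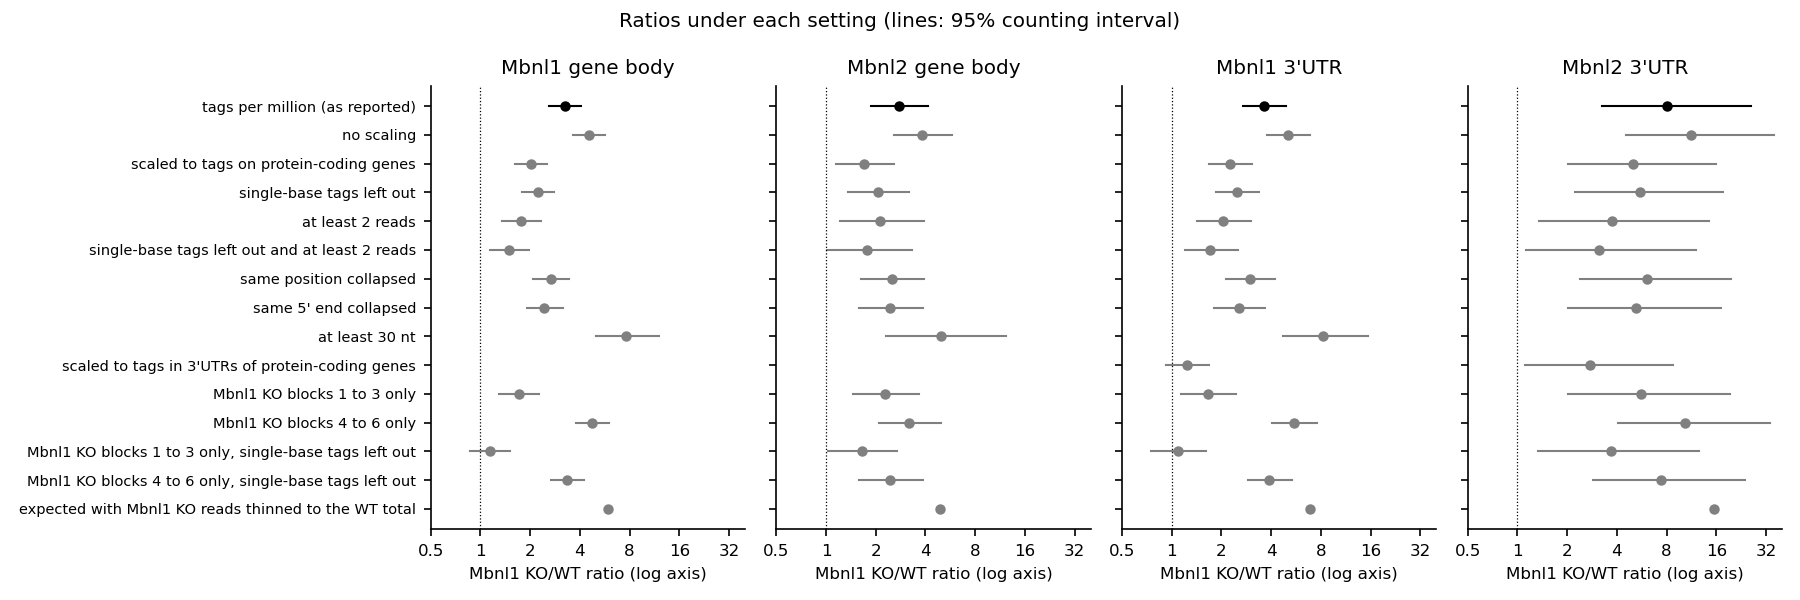
Mbnl1 KO/WT ratios (log axis) of the gene body and 3′UTR of Mbnl1 and Mbnl2 as reported (black) and under each other setting (grey), with lines for the 95% counting interval and a dotted line at 1. The points with Mbnl1 KO blocks 1 to 3 and without single-base tags are the lowest for Mbnl1, at 1.14 and 1.10, with intervals that include 1.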

How the data were processed

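Mbnl2 HITS-CLIP tags from quadriceps of 3 WT and 3 Mbnl1 KO mice were read from 1 merged table per genotype. Per the study's methods, low-quality reads were removed, BWA (version not given in the sources used here) placed the rest on mm9, and short sequences and likely PCR duplicates were dropped. The authors deposited a raw read count beside every unique tag. The tables held 343554 WT and 476543 Mbnl1 KO tags from 5176203 and 50329234 reads, which limits ratios at regions with few tags. Tags were counted with Python 3.11.15, numpy 2.4.6, pandas 2.3.3, scipy 1.17.1 and samtools 1.23.1 where they overlapped a region of GENCODE vM1 on its strand, and divided by the tags of the table. The counting and intervals were tested on simulated data.

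The members, lists and rules were chosen with earlier results of these data known. The genes named are the 3 members with their alternative exons and 3′UTRs, the listed myotonic dystrophy genes, and the 3 genes nearest to each member with at least 50 tags. Alternatives were other scalings, tag filters, counting by midpoint, window widths and cluster minimums. Block settings and pairs, 3′UTR scaling and read thinning were added after the data were seen.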

Additional observations from a re-analysis of the deposited data

How the results depend on the processing

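The other settings, 14 or 15 for each gene body and 3′UTR of Mbnl1 and Mbnl2, gave ratios above 1, except that no ratio could be had for the Mbnl2 3′UTR with tags of at least 30 nt, at 0 WT and 18 Mbnl1 KO tags. Without scaling, the ratio was 4.52 at the Mbnl1 gene body and 5.04 at its 3′UTR. Scaled to tags on protein-coding genes, it was 2.02 and 2.25, and 1.71 at the Mbnl2 gene body. Scaled to 3′UTR tags, the Mbnl1 and Mbnl2 3′UTRs had 1.24 and 2.75. Without single-base tags Mbnl1 had 2.24 (gene body) and 2.48 (3′UTR), with tags of at least 2 reads 1.77 and 2.04, and with both filters 1.48 and 1.71, while Mbnl2 had 1.78 and 3.13. Tags collapsed by position gave 2.66 and 2.96 at Mbnl1 and 2.50 and 6.08 at Mbnl2. Tags collapsed by 5′ end gave 2.44 and 2.56 at Mbnl1. Tags of at least 30 nt gave 7.58 and 8.22, and 4.96 at the Mbnl2 gene body. Mbnl1 KO blocks 1 to 3 gave 1.72 and 1.67 at Mbnl1 and blocks 4 to 6 gave 4.73 and 5.50. Blocks 1 to 3 without single-base tags gave 1.14 and 1.10, and 1.65 at the Mbnl2 gene body. With the reads of Mbnl1 KO thinned to the number in WT, the expected ratios were 5.90, 6.89 and 4.90 in that order. The cause of these shifts was not tested. Leaving out 1 block at a time gave 2.76 to 4.54 at the Mbnl1 gene body, 3.04 to 5.16 at its 3′UTR, 2.25 to 3.29 at the Mbnl2 gene body and 5.99 to 11.0 at its 3′UTR, the highest of each without WT block 3. Mbnl3 ranged from 0.425 to 1.97 and had too few tags for a direction, with no ratio for tags of at least 2 reads or 30 nt. The alternative exon windows gave 1.18 with 200 nt of intron, 1.15 with 1000 nt and 0.689 without single-base tags. The 10 3′UTR clusters became 17 at a minimum of 5 tags and 5 at 20. No paired analysis was possible because each genotype is 1 merged table.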
